A study of Homo sapiens with 6 samples.

Results

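The type II MAGE genes were described as 10 named genes, MAGED1, MAGED2, MAGED4, MAGED4B, MAGEF1, MAGEH1, MAGEL2, MAGEE1, NDN and NSMCE3, out of 62348 identifiers in the gene tables. They were chosen by name, by matching the Ensembl identifiers of the count files to gene symbols, and all 10 had exactly 1 row. Of the 10 genes, 7 had enough counts to be tested, NSMCE3 had 0 to 9 counts per library, and MAGEL2 and NDN had 0 counts in each library. The study compared poly(A)-selected RNA of HEK-293T cells, an established line derived from embryonic kidney. There were 3 libraries of genotype WT, given a non targeted sgRNA, and 3 of genotype C17orf80 knockout, given a C17orf80 sgRNA; they are called WT1 to WT3 and KO1 to KO3 after their labels. Per the labels the knockout line was made with CRISPR/Cas9 and monoclonal cells were selected with puromycin, with no count of clones. Clone and guide effects therefore cannot be told apart, and whether replicates were separate cultures was not given. The p-values reflect only how far these libraries varied, and that variation may be technical.

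MAGE proteins share a MAGE homology domain, a pair of winged-helix folds through which they bind RING-type E3 ubiquitin ligases and alter which substrates those ligases modify. Type I MAGE genes (the MAGEA, MAGEB and MAGEC families) lie on the X chromosome and are normally active in testis and in tumours. Type II genes are expressed in many tissues, often highly in brain, and include the paternally expressed NDN and MAGEL2 of the Prader-Willi region on chromosome 15. In kidney, the tissue from which the line was derived, MAGED2 is known for sustaining salt transport in the distal nephron.

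Promoters of 4 genes are shown, because 2 belong to genes that fell, 1 to a gene whose groups overlapped and 1 to a gene without counts. The sequences are the 250 bases before a RefSeq start site on GRCh38.p14, read 5′ to 3′ on the gene's strand. Capitals mark, in MAGED1 and MAGED4, the palindrome made of GCGCA and its reverse complement, GGGCGG or its complement in MAGEE1 and each CG in NDN. The marks differ by gene and do not compare genes. GGGCGG or its complement is also present, unmarked as such, in the MAGED1, MAGED4 and NDN sequences.
MAGED1, plus strand, chrX:51893373-51893622, the downstream of 2 RefSeq starts: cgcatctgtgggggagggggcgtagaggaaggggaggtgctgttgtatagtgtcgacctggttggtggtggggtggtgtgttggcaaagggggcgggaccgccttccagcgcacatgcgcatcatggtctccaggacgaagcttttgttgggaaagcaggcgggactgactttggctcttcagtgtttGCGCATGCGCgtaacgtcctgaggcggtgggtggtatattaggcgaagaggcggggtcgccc
MAGED4, plus strand, chrX:52184638-52184887: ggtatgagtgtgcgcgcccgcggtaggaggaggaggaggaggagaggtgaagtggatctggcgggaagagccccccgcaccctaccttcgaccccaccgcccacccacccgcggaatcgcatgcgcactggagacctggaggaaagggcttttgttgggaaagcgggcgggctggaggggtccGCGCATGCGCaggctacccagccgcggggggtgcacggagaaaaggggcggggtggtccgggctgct
MAGEE1, plus strand, chrX:76427460-76427709: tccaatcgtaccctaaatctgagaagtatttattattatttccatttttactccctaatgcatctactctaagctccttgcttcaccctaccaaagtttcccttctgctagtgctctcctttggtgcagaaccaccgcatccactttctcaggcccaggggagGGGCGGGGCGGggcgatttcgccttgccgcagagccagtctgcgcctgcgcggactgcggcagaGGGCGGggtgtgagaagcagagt
NDN, minus strand, chr15:23687306-23687555: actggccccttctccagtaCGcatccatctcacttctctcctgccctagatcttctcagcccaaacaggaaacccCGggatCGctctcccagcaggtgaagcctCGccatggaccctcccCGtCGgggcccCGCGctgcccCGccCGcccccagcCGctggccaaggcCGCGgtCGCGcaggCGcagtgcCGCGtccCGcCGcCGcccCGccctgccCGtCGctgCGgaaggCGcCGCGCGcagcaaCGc

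The promoter table held 12 windows of 300 bases (250 before and 50 after a start) for 9 of the 10 genes, and none for MAGEH1. That palindrome, which nuclear respiratory factor 1 is known to bind, was found in 4 of these windows, which belong to MAGED1, MAGED4 and MAGED4B. It was present in 1.24% of all 35116 windows, and in MAGED1 and MAGED4 it began 62 and 67 bases before the start. MAGED4 and MAGED4B do not count as separate cases, since their windows were identical over 276 aligned bases of 300. The windows of MAGED4B also overlap each other. The MAGED1 window with the palindrome aligned to that of MAGED4 over 157 columns, with 63.7% identity, so MAGED1 may not be a separate case either. Every other window outside MAGED4B aligned to that of MAGED4 over 26 to 66 columns. On either strand, the GC box GGGCGG was found in 11 of the members' 12 windows, against 45.0% of all windows. CCGGAAGT, an ETS-type motif, was found in 3 windows, of MAGED1, MAGED2 and MAGEF1 (4.14% of all windows). CCAAT was found in 3 windows, those of MAGED4B, whose windows start at other bases than that of MAGED4, and that of MAGEE1 (34.6% of all windows), and TATAAA in 1, of MAGED2 (11.5%). The number of CG dinucleotides ranged from 9 in MAGEL2 to 35 in NDN, with a median of 14 over all windows; GGGCGG, CCGGAAGT and the palindrome each contain CG and add to it. These matches describe letters in the reference, and binding or methylation was not measured here.

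Gene counts summed to between 14982340 and 16278091 per library. KO1 stood apart: its lowest Pearson's r with its own group across genes was 0.932 on log2 CPM, against 0.987 between KO2 and KO3, and 11.9% of its gene counts were mitochondrial, against 4.53% to 5.00% in the other 5 libraries. CPM here are counts scaled to library size after TMM normalisation, a correction for composition. The C17orf80 transcript averaged 27.3 ± 1.72 CPM in WT and 46.9 ± 8.22 CPM in KO1 to KO3 (SD, n = 3). It rose by 0.78 ± 0.17 on the log2 scale (edgeR adjusted p = 0.0232). Protein was not measured here, so the rise does not show whether the knockout worked. The group is called KO-labelled throughout. HEK-293T markers summed to 563 to 594 CPM in WT and 649 to 703 CPM in the KO-labelled libraries, although LHX1 had 11 or fewer counts per library. Their members went both ways: CDH2 rose from 38.3 to 93.0 CPM (edgeR adjusted p = 0.00395), and PAX2 was at 8.92 and 5.52 CPM (log2 fold change -0.69, edgeR adjusted p = 0.12). The 4 blood markers summed to at most 0.850 CPM, with 3 of 4 at 0 counts. The 4 endothelial markers summed to 1.29 to 1.89 CPM in WT and 0.666 to 1.03 CPM in the other group, with 1 of 4 at 0. The 5 fibroblast markers summed to 42.8 to 48.4 CPM in WT and 24.0 to 32.4 CPM in the KO-labelled libraries. COL1A1, at a mean of 43.1 CPM in WT and 24.4 CPM in the KO-labelled libraries, gave most of that sum and fell (edgeR adjusted p = 0.0350), while LUM, at 1.70 and 4.11 CPM, rose (log2 fold change 1.26, edgeR adjusted p = 0.0455). COL1A2, another defining collagen gene, had 0 counts in each library, and the part of such markers in the members' changes was not tested.

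In the KO-labelled libraries, 2 of the 7 tested members fell (MAGED1 and MAGED4) and 0 rose. Among 17452 tested genes 15.1% changed, 6.5% lower and 8.64% higher (edgeR quasi-likelihood test, Benjamini-Hochberg adjusted p under 0.05). At an unadjusted p under 0.05 edgeR gave 3 lower and 0 higher members, against 15% and 18.2% of all genes. After adjustment DESeq2 gave 3 lower and 0 higher members, against 10.7% and 13.4% of all genes, and limma-voom 3 and 0, against 7.08% and 8.04%. The joint count of MAGED4 and MAGED4B also fell, while MAGED2, MAGEF1, MAGEH1 and MAGEE1 did not pass. All 7 tested members had a log2 fold change below 0, as did 49.7% of tested genes, and their median was -0.82 against 0.0055 over all tested genes. In 5 of the 7, each KO-labelled library lay below each WT library, which was so for 24.1% of tested genes. KO1 was the lowest of the 6 libraries for 6 of the 7, against 38.2% of tested genes. These counts of members, here and below, take MAGED4 and MAGED4B as 2 genes, although they are near-identical copies whose split of reads is uncertain. In bulk RNA, fewer cells that express a gene and less RNA per cell cannot be told apart.

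**Figure D1:**
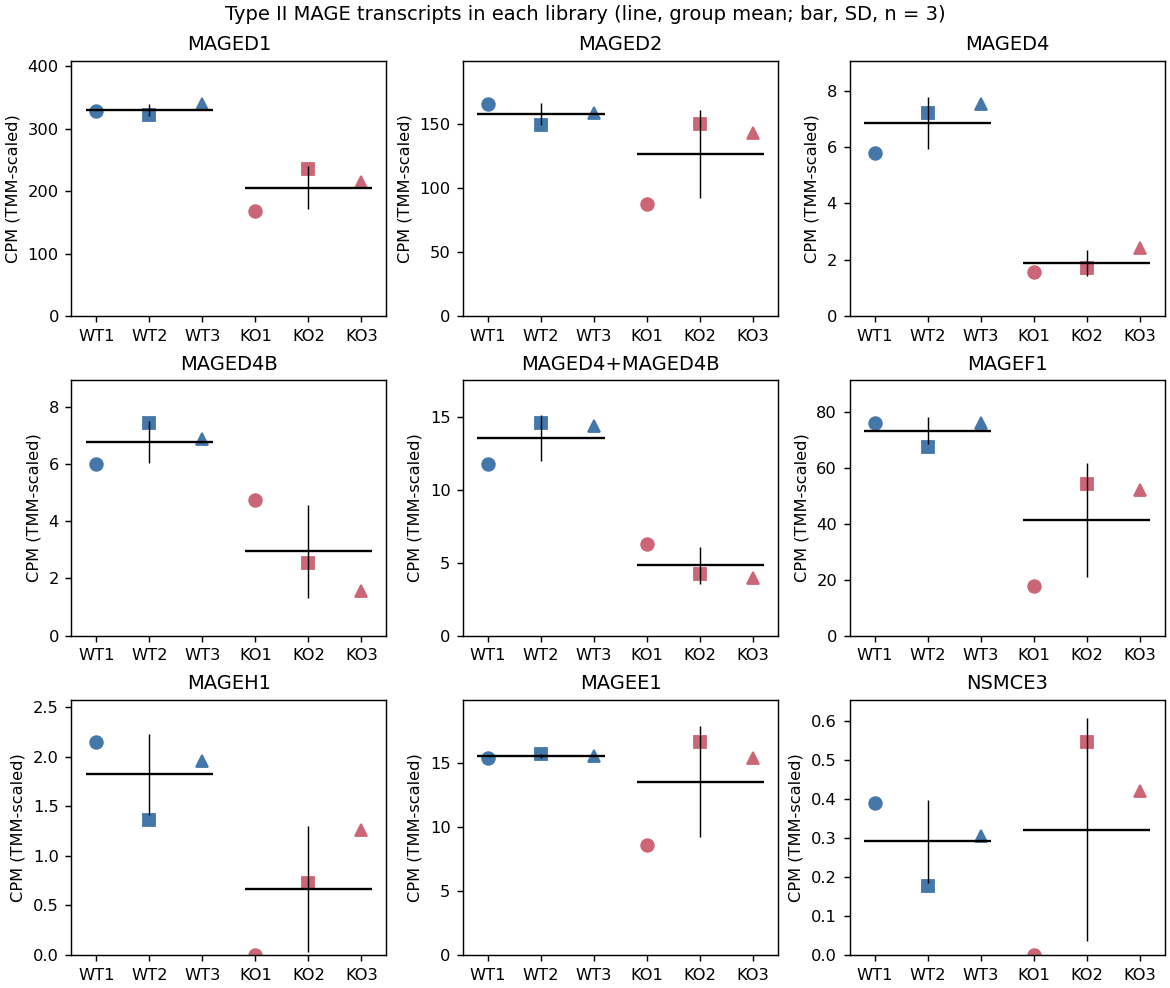
TMM-scaled CPM (y axis, from 0, a scale of its own in each panel) of 8 detected type II MAGE genes and of the joint MAGED4 and MAGED4B count in 3 WT libraries (blue) and 3 KO-labelled libraries (red, KO1 to KO3). Lines are group means and bars SD; MAGED1, MAGED4 and the joint count show 2 separate groups, whereas MAGED2 and MAGEE1 are low in KO1 alone.

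MAGED1 (ENSG00000179222, chromosome X, positions 51803076 to 51902354), an adaptor of the p75 neurotrophin receptor and of the Praja ligases, had 2270 to 5548 counts per library. It was at 328, 321 and 340 CPM in WT1 to WT3 and at 168, 235 and 214 CPM in KO1 to KO3. The WT libraries lay close together, and each KO-labelled library lay well below them, KO1 the lowest. The means were 330 ± 9.46 and 206 ± 34.2 CPM (SD, n = 3), 1.60-fold lower (log2 fold change -0.68 ± 0.16, SE; edgeR adjusted p = 0.0297). KO1 to KO3 stood at 50.9%, 71.1% and 65.0% of the WT mean. Without KO1 the log2 fold change was -0.55 ± 0.063 (edgeR adjusted p = 1.3e-07). The edgeR adjusted p was 0.129, 0.118 and 0.138 without WT1, WT2 and WT3 and 0.0819 without KO3. The call did not hold in any of these fits, where the log2 fold change was -0.69, -0.71, -0.67 and -0.71. Fewer genes were called there over all tested genes, with 1.35%, 1.34%, 1.33% and 2.19% lower, against 6.5% over all 6 libraries.

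MAGED4 (ENSG00000154545, positions 52184888 to 52192268) and MAGED4B (ENSG00000187243, positions 52061827 to 52069272) are near-identical neighbouring copies on chromosome X. Their split of reads is uncertain. RefSeq also places the small nucleolar RNA genes SNORA11D and SNORA11E inside them, SNORA11 inside MAGED2 and 2 pseudogenes inside MAGED1, so that a part of these reads may belong to either. MAGED4 had 89, 121 and 123 counts in WT1 to WT3 and 21, 28 and 40 counts in KO1 to KO3. The groups did not overlap, and all 3 KO-labelled libraries were far below the lowest WT library. MAGED4 averaged 6.84 ± 0.925 CPM in WT and 1.89 ± 0.455 CPM in KO1 to KO3 (SD, n = 3), and it fell (log2 fold change -1.85 ± 0.27, edgeR adjusted p = 0.00598). Of the tested genes, 1.95% had a lower log2 fold change. MAGED4 was called lower under each of the 16 alternatives, with edgeR, DESeq2 or limma-voom adjusted p up to 0.0433.

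MAGED4B had 92, 125 and 112 counts in WT1 to WT3 and 64, 42 and 26 counts in KO1 to KO3. Here KO1 was the closest to WT, unlike for the other tested members. The means were 6.76 ± 0.727 and 2.95 ± 1.62 CPM (SD, n = 3; log2 fold change -1.21 ± 0.39, edgeR adjusted p = 0.0795). MAGED4B did not pass edgeR over 6 libraries, though it did by DESeq2 (adjusted p = 0.0265), by limma-voom (adjusted p = 0.0472), by edgeR with no filter beyond 1 count (adjusted p = 0.0228), and by edgeR without KO1 (log2 fold change -1.71, adjusted p = 8.5e-06).

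Counted together, the copies had 181, 246 and 235 counts in WT1 to WT3 and 85, 70 and 66 counts in KO1 to KO3. The joint count removes the question of which copy a counted read came from. Reads that were not counted for either copy are outside it. Over KO1 to KO3 its coefficient of variation was 26.2%, against 24.1% for MAGED4 and 55.0% for MAGED4B. The joint level was 13.6 ± 1.58 CPM in WT and 4.83 ± 1.27 CPM in the KO-labelled libraries (SD, n = 3), at 46.2%, 31.3% and 29.2% of the WT mean in KO1 to KO3. The log2 fold change was -1.50 ± 0.24 (edgeR adjusted p = 0.0089), a 2.82-fold lower level, and -1.72 ± 0.18 without KO1. The edgeR adjusted p was 0.0547 and 0.0554 without WT2 and WT3, and 0.0504 once a trend with gene span was removed.

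The division of the joint count between the copies differed among the KO-labelled libraries. MAGED4 took 49.2%, 49.2% and 52.3% of it in WT1 to WT3 and 24.7%, 40.0% and 60.6% in KO1 to KO3. The exact (Clopper-Pearson) 95% interval was 16.0% to 35.3% in KO1 and 47.8% to 72.4% in KO3, so these do not overlap. WT intervals lay between 41.7% and 58.9%. Intervals cover counting error only, and no molecular identifiers are named in the labels. The group means were 50.2 ± 1.83% and 41.8 ± 18.0% (SD, n = 3); an exact permutation test of 3 against 3 libraries cannot go below p = 0.1, so the group difference was not assessed. The deposited row for reads aligned at more than 1 place held 0 in each library, and the sources used here do not say how such reads were treated.

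**Figure D2:**
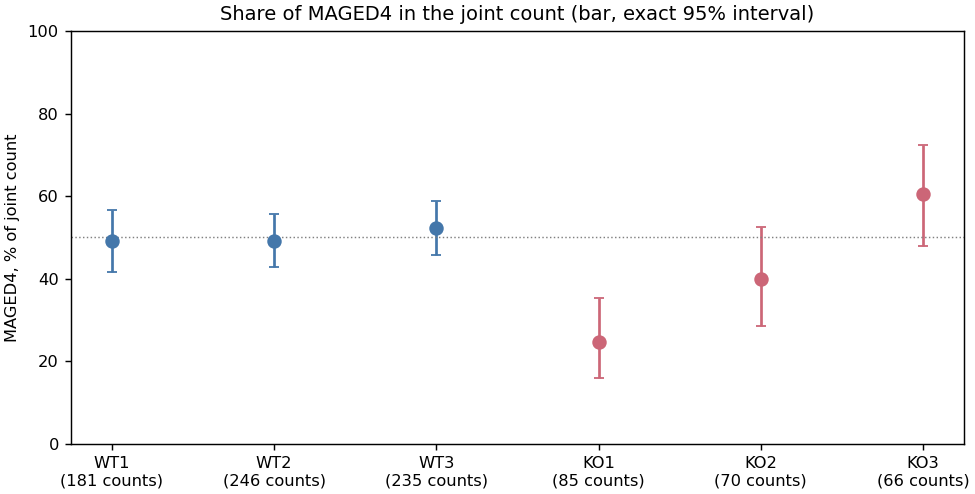
Share of MAGED4 in the joint MAGED4 and MAGED4B count (y axis, percent) in each library, with the joint count in brackets and exact 95% binomial intervals as bars. The 3 WT libraries sit near the dotted line at 50%, and the KO-labelled libraries spread from 24.7% to 60.6%.

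MAGED2 (ENSG00000102316, chromosome X, positions 54807745 to 54816015), whose loss in humans causes a transient antenatal form of Bartter syndrome through renal salt transporters, was at 166, 149 and 158 CPM in WT1 to WT3. It was at 87.0, 149.8 and 143 CPM in KO1 to KO3. KO2 and KO3 were close to WT, with KO2 above the lowest WT library, and KO1 alone was far below. The log2 fold change was -0.32 ± 0.22 (edgeR adjusted p = 0.338) and -0.10 ± 0.069 without KO1 (edgeR adjusted p = 0.254).

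MAGEF1 (ENSG00000177383, chromosome 3, positions 184710364 to 184712064) is the autosomal member that directs the NSMCE1 ligase against MMS19, a factor of iron-sulfur protein assembly. It was at 76.1, 67.7 and 76.1 CPM in WT1 to WT3 and at 17.7, 54.4 and 52.1 CPM in KO1 to KO3. The groups did not overlap, and KO1 stood at 24.1% of the WT mean against 74.3% and 71.0% in KO2 and KO3. Over 6 libraries MAGEF1 did not pass (log2 fold change -0.82 ± 0.38, edgeR adjusted p = 0.180). Without KO1 the spread was smaller and the change passed (-0.45 ± 0.083, edgeR adjusted p = 8.1e-05).

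MAGEH1 (ENSG00000187601, chromosome X, positions 55452127 to 55453566), a short protein made almost only of the MAGE domain, had 33, 23 and 32 counts in WT1 to WT3 and 0, 12 and 21 counts in KO1 to KO3. At this depth 0 counts in KO1 allow up to 0.222 CPM. The groups did not overlap but the counts were low (1.82 ± 0.407 and 0.664 ± 0.634 CPM, SD, n = 3), and the log2 fold change of -1.41 ± 0.81 did not pass (edgeR adjusted p = 0.262). It was -0.86 ± 0.43 without KO1 (edgeR adjusted p = 0.112).

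MAGEE1 (ENSG00000198934, chromosome X, positions 76427710 to 76431342), a partner of dystrobrevin with a pair of MAGE domains, was at 15.3, 15.7 and 15.5 CPM in WT1 to WT3. It was at 8.58, 16.6 and 15.4 CPM in KO1 to KO3. KO2 and KO3 lay at 107% and 99.2% of the WT mean, and KO1 at 55.3%, so that the groups overlapped. The log2 fold change was -0.20 ± 0.26 (edgeR adjusted p = 0.618), and its sign turned without KO1, at 0.051 ± 0.13.

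NSMCE3 (ENSG00000185115, chromosome 15, positions 29264989 to 29269822), the MAGE subunit of the SMC5/6 genome maintenance complex, had 6, 3 and 5 counts in WT1 to WT3 and 0, 9 and 7 counts in KO1 to KO3. It did not reach the filter on low counts and was not tested. Its RefSeq span overlaps that of 1 other gene, ENTREP2, and reads in more than 1 feature formed a separate class of 9.74% to 12.5% of counted reads per library; their part in the low NSMCE3 count was not tested.

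NDN (ENSG00000182636, chromosome 15, positions 23685400 to 23687305), which encodes the growth suppressor necdin, and MAGEL2 (ENSG00000254585, positions 23643549 to 23647867), a subunit of a ligase on endosomes, had 0 counts in each of the 6 libraries. A count of 0 over a group allows up to 0.0618 CPM in WT and 0.0643 CPM in the KO-labelled libraries. No fold can be given for either. Of the 8 imprinted or flanking genes listed around them, 7 were found in the tables and 3 (NPAP1, SNRPN and SNURF) also had 0 counts; SNRPN and SNURF overlap each other in RefSeq, and the part of ambiguous reads in these zeros was not tested. MKRN3, ATP10A and SNHG14 had at most 9 counts in any library. UBE3A, a ubiquitin ligase gene of the same region, was the single tested gene, with means of 80.2 ± 3.40 CPM in WT and 123 ± 50.2 CPM in KO1 to KO3 (SD, n = 3; log2 fold change 0.62 ± 0.27, edgeR adjusted p = 0.155). Without KO1 its log2 fold change was 0.24 ± 0.074 and passed (edgeR adjusted p = 0.00902).

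**Figure D3:**
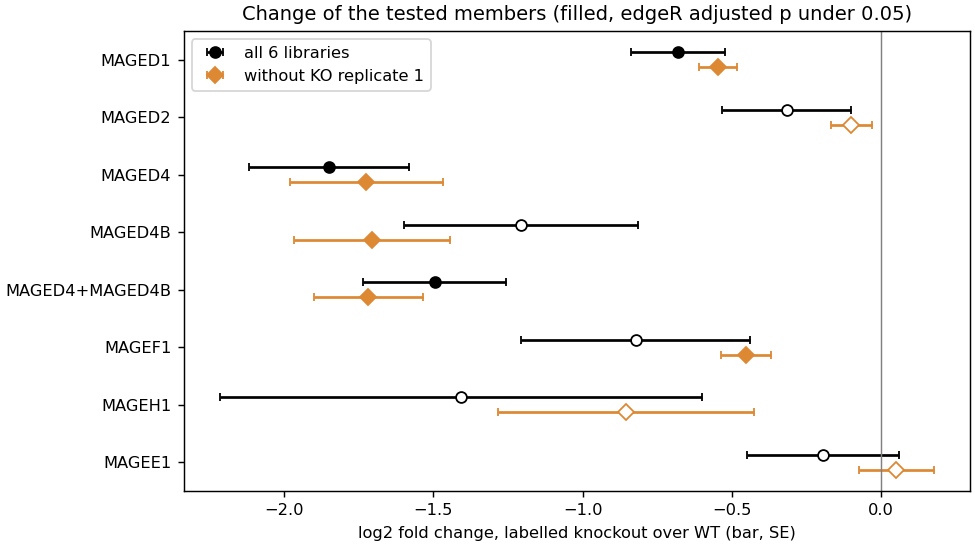
Log2 fold change of the 7 tested members and the joint count (x axis, labelled knockout over WT; bars, SE) over all 6 libraries (black circles) and without KO1 (orange diamonds). Filled symbols passed edgeR; MAGED1, MAGED4 and the joint count are filled in both fits, MAGED4B and MAGEF1 only without that library.

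Leaving out KO1, 4 of the 7 tested members (MAGED1, MAGED4, MAGED4B and MAGEF1) were called lower and 0 higher. In that fit 44% of 18133 tested genes were called, 21.7% lower and 22.3% higher, so small changes were commonly called. The median log2 fold change of the 7 members was -0.55, against 0.0062 over all genes. The groups of 5 members did not overlap on these libraries, as for 30.7% of genes. MAGED1, MAGED4, MAGED4B, MAGEF1 and MAGEH1 stood below WT in all 3 KO-labelled libraries, while MAGED2 and MAGEE1 were far below WT in KO1 only. MAGED4 had the lowest log2 fold change of the 7 with KO1 (-1.85). Without KO1, MAGED4 (-1.72 ± 0.26, SE) and its near-identical copy MAGED4B (-1.71 ± 0.26) were about equal and the lowest of the 7.

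The departure of KO1 moved with gene span. For the quintile of tested genes with the shortest RefSeq span, up to 7716 bases, its median difference from the WT mean was -0.75 on log2 CPM, and for the quintile of longest span it was 0.61. In KO2 and KO3 the medians of the quintiles lay between -0.076 and 0.12. The tested members other than MAGED1 are short, with spans of 1440 to 8271 bases. In KO1, MAGEE1 was at -0.84 and MAGED4B at -0.50, near the median of their quintile, whereas MAGED4 was at -2.04, MAGEF1 at -2.04 and MAGEH1 at -3.93. MAGEH1 had 0 counts in KO1, so its value there depends on the prior count of 2. MAGED1, with a span of 99279 bases, was at -0.97 where its quintile stood at 0.61. With the trend removed, a fit added after the data were seen, MAGED1 and MAGED4 stayed called (log2 fold change -0.82 and -1.61, edgeR adjusted p = 0.0362 and 0.00585). In that fit 10.5% of 15099 tested genes were lower, against 7.32% of the same genes with the trend kept. The other 5 members did not pass. MAGED2 was at -0.10 and MAGEE1 at 0.032. MAGEF1 was at -0.70, MAGED4B at -0.85 and MAGEH1 at -1.31 (edgeR adjusted p = 0.0675, 0.262 and 0.219).

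**Figure D4:**
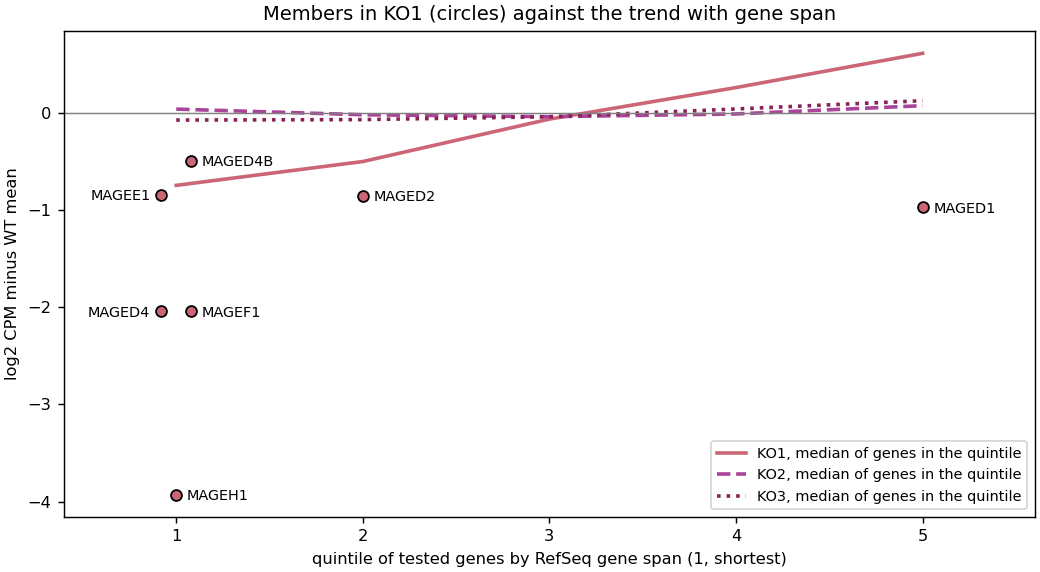
Median difference in log2 CPM from the WT mean (y axis) by quintile of RefSeq gene span (x axis, 1 the shortest) for each KO-labelled library (lines), and the 7 tested members in KO1 (circles). KO1 runs from -0.75 to 0.61 while KO2 and KO3 stay near 0. MAGED1, MAGED4, MAGEF1 and MAGEH1 lie well below the KO1 line, MAGEH1 with 0 counts in KO1.

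Of the type II genes outside the 10, TRO (trophinin, MAGED3), which neighbours MAGED2 on the X chromosome, fell as well. It averaged 58.5 ± 3.25 CPM in WT and 40.2 ± 4.69 CPM in KO1 to KO3 (SD, n = 3; log2 fold change -0.54 ± 0.15, edgeR adjusted p = 0.0471; -0.46 without KO1). MAGEE2 had 0 counts in each library. Of 26 type I genes matched by name, 4 were tested; all 4 had at most 2 counts in any KO-labelled library, so they passed the filter through WT alone and could only be called lower. MAGEA3 had 1283, 1339 and 1391 counts in WT1 to WT3 and 0, 1 and 0 counts in KO1 to KO3, where MAGED1 stood at 50.9% to 71.1% of its WT mean. Near-identical MAGEA copies make the split of those reads uncertain, and the difference between the types was not tested.

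The nearest tested protein-coding RefSeq gene on each side of a member was taken as its neighbour. Of 14 such neighbours outside the members 3 fell (GSPT2, EPHB3 and TRO) and 0 rose, against 6.5% and 8.64% of all tested genes. The median log2 fold change of the 14 was -0.048. At an unadjusted p under 0.05 edgeR gave 3 lower and 3 higher, against 15% and 18.2% of all genes. After adjustment DESeq2 gave 3 lower and 1 higher, against 10.7% and 13.4% of all genes. By limma-voom 3 were lower and 0 higher, against 7.08% and 8.04%. GSPT2, a translation termination factor gene 56.8 kb from MAGED1, had 24.5 ± 1.39 CPM in WT (SD, n = 3) and 0 counts in the KO-labelled libraries. That was at least 381-fold lower with 3 counts over the group in place of 0 (edgeR adjusted p = 0.00027). GSPT2 passed the filter through WT alone and could only be called lower. EPHB3, an ephrin receptor gene 128 kb from MAGEF1, averaged 19.7 ± 1.99 CPM in WT (SD, n = 3) and fell as well (log2 fold change -0.84 ± 0.18, edgeR adjusted p = 0.0225), and TRO, 105 kb from MAGED2, was the third. On the other side of MAGED2, GNL3L was at 0.22 ± 0.13 (edgeR adjusted p = 0.258). USP51, 31.05 kb from MAGEH1, averaged 8.60 ± 0.703 CPM in WT and 16.5 ± 6.76 CPM in KO1 to KO3 (log2 fold change 0.93 ± 0.29, edgeR adjusted p = 0.0733). MAGEE1 was flanked by PBDC1 (0.46 ± 0.17) and ATRX (0.81 ± 0.34), neither of which passed over 6 libraries. Without KO1, 3 of the 14 neighbours were called lower and 5 higher, against 21.7% and 22.3% of all genes. The 5 were GNL3L (0.18), USP51 (0.56), PBDC1 (0.35), ATRX (0.29) and UBE3A (0.24), with edgeR adjusted p from 0.00212 to 0.0391.

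Partner genes were taken from lists that hold known interactors of the members, other subunits of the same complexes and genes linked less directly. Direct binding to a member was not required. Over all tested genes 6.5% fell and 8.64% rose by edgeR over 6 libraries. Of 14 tested genes around the p75 neurotrophin receptor and the transcription partners of MAGED1, NDN and MAGEH1, 1 fell, 0 rose and 13 did not pass, with a median log2 fold change of -0.071. The one that fell was PJA1, the Praja ligase that MAGED1 binds, with means of 61.9 ± 2.80 CPM in WT and 35.8 ± 4.54 CPM in KO1 to KO3 (SD, n = 3; log2 fold change -0.79 ± 0.15, edgeR adjusted p = 0.0150; -0.70 without KO1). Its paralog PJA2 was at 0.18 ± 0.28 and the caspase inhibitor gene XIAP at 0.17 ± 0.21 (edgeR adjusted p = 0.677 and 0.596). Both signs turned without KO1, to -0.22 for PJA2 (edgeR adjusted p = 0.0153) and -0.084 for XIAP. In that fit 5 of the 14 were called lower and 0 higher, against 21.7% and 22.3% of all genes. Among 6 tested genes listed for MAGED2 and MAGEE1, 1 rose, SNTB1, which encodes a syntrophin of the dystrophin complex. SNTB1 averaged 2.47 ± 0.392 CPM in WT and 19.1 ± 5.09 CPM in KO1 to KO3 (log2 fold change 2.94 ± 0.27, edgeR adjusted p = 0.00102; 2.72 without KO1). HUWE1, a large ubiquitin ligase gene, was at 0.93 ± 0.36 and GNAS, which encodes a stimulatory G protein subunit, at -0.28 ± 0.18 (edgeR adjusted p = 0.123 and 0.303). Without KO1, 3 of the 6 were called higher and 2 lower, against 22.3% and 21.7% of all genes. In that fit HUWE1 was at 0.35 (edgeR adjusted p = 1.9e-05), GNAS at -0.11, and DTNA, the dystrobrevin gene, at -0.41 (edgeR adjusted p = 0.000258).

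No gene of the remaining partner lists passed edgeR over 6 libraries. Of 7 tested genes of the SMC5/6 complex and its loaders, in which NSMCE3 is a subunit, 0 rose and 0 fell, with a median log2 fold change of 0.36. The highest in CPM were SMC5 (0.71 ± 0.24, edgeR adjusted p = 0.0910) and SMC6 (0.71 ± 0.23, edgeR adjusted p = 0.0800), the ATPase pair of the complex. Before adjustment 3 were higher and 0 lower by edgeR at p under 0.05, against 18.2% and 15% of all genes. After adjustment DESeq2 gave 3 higher and limma-voom 0, where 13.4% and 8.04% of all genes were higher. By edgeR without KO1, 3 of 8 were called higher, against 22.3% of all genes, with SMC5 at 0.39 and SMC6 at 0.43. Of 11 tested genes of the MAGEL2 ligase, the WASH complex and retromer, 0 passed (median 0.095), nor did any at an unadjusted p under 0.05 or by DESeq2 or limma-voom (0 each). USP7, a deubiquitinase gene, was at 0.54 ± 0.24 and VPS35, a retromer gene, at 0.20 ± 0.23. Without KO1 USP7 was at 0.21 and passed (edgeR adjusted p = 0.0111), and VPS35 turned to -0.099. TRIM27, the ligase partner of MAGEL2, had 2 counts in 1 WT library and 0 in the other 5. Its RefSeq span overlaps that of 1 other gene, RNU6-930P. The part of ambiguous or multiply aligned reads in this low count was not tested, so it does not show that TRIM27 is silent. In the fit without KO1, 1 of these 11 was called higher and 4 lower, against 22.3% and 21.7% of all genes. Of the 4 genes of iron-sulfur targeting around MAGEF1, 0 passed in either fit (median -0.090), and 0 at an unadjusted p under 0.05 or by DESeq2 or limma-voom. Its target MMS19 averaged 124 ± 5.14 CPM in WT and 116 ± 2.56 CPM in KO1 to KO3 (SD, n = 3), and CIAO1, a WD40 subunit gene, had a log2 fold change of -0.077 ± 0.15.

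**Figure D5:**
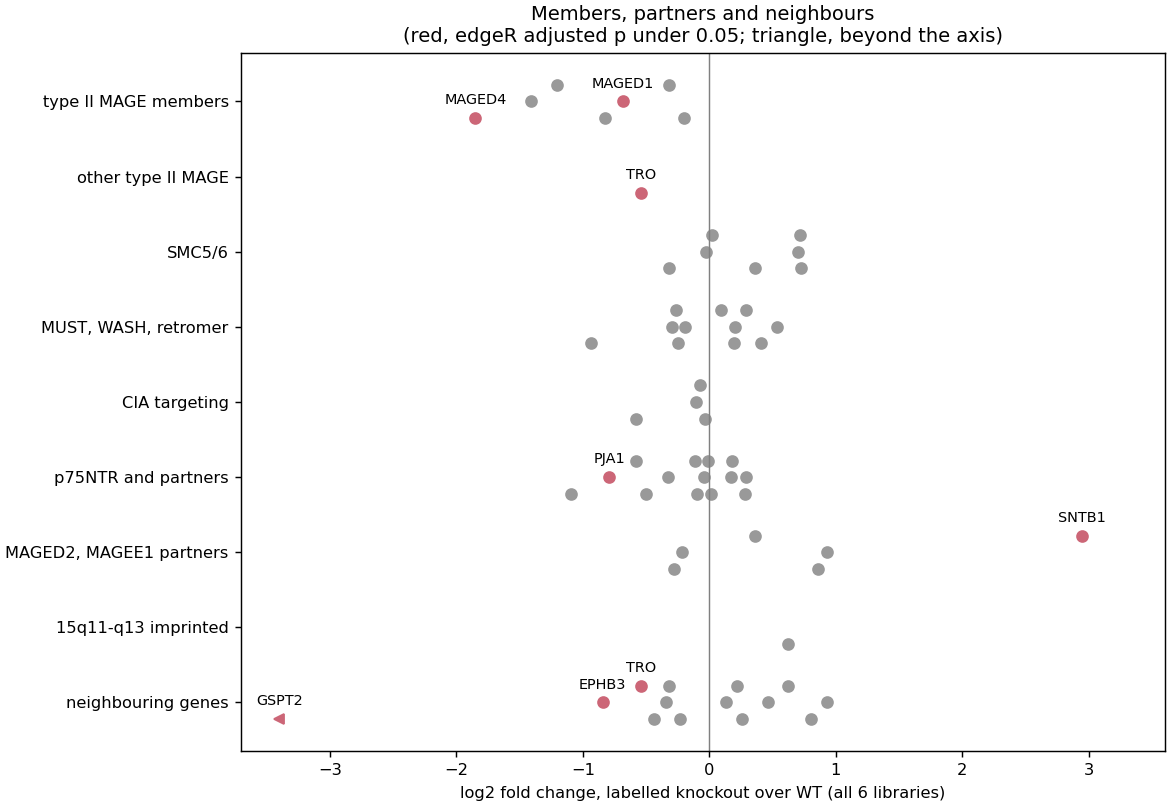
Log2 fold change over all 6 libraries (x axis) of each tested member, partner and neighbouring gene, in rows by list; vertical position within a row has no meaning. Red symbols passed edgeR and are named (GSPT2 lies beyond the axis at the left); TRO stands in 2 rows, and SNTB1 is the single red symbol right of 0.

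The gene most like each member across the 6 libraries was sought among tested genes with a mean of at least 5 CPM, by Pearson's r of log2 CPM. This was LPAR2 for MAGED1, MFSD3 for MAGED2, KMT5C for MAGEF1 and COX19 for MAGEE1, each with r of at least 0.999 over 6 libraries. Such values describe only these 6 points, in which KO1 is far from the rest: 1040 of 11714 genes had r of at least 0.95 with MAGED1 and 1773 with MAGEF1. Levels were not ordered between members, since CPM depend on transcript length and transcript lengths were not used here.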

How the data were processed

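The authors deposited 1 table per library of raw counts, in whole numbers for every annotated gene. Per the submitters' processing notes the tools were HISAT2 2.2.1, HTSeq 0.12.4, SAMtools 1.3.1, bedtools 2.30.0, FastQC 0.11.9 and DESeq2, on GRCh38, with no role or order; counting options and strand were not given in the sources used here. Reads in no feature (8.75% to 15.9% of counted reads) and ambiguous reads (9.74% to 12.5%) were left out. Mitochondrial coverage files were not used.

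The test was edgeR 4.0.16 (R 4.3.3) over all genes that passed filterByExpr: TMM scaling, a quasi-likelihood F test of group with no covariate, and p-values adjusted by Benjamini-Hochberg, called at 0.05. A second fit replaced MAGED4 and MAGED4B by their sum. Log2 CPM used a prior count of 2, and a count of 0 was taken to allow 3 counts. Symbols came from a gene name table. Coordinates, spans and promoters came from RefSeq (GRCh38.p14), whose symbols matched 86.5% of tested genes. Alternatives were DESeq2 1.42.0, limma-voom (limma 3.58.1), other scalings and filters, leaving out a library in turn, and the replicate number as a block. No libraries were duplicates by a chi-square comparison of counts.

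Members and lists were chosen with earlier results of these data known. The rule named all members, the partners that passed and otherwise up to 2 per list by mean CPM, the nearest tested protein-coding gene on each side of a member, and, for members of at least 5 CPM, the gene with the highest r. TRIM27, MAGEA3, DTNA, the marker genes and the listed imprinted genes were named after their values were seen, as were the other 2 genes by CPM in lists where a gene passed.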

Additional observations from a re-analysis of the deposited data

How the results depend on the processing

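Under the 16 alternatives MAGED4 kept its direction and its call, and MAGED2 and MAGEH1 stayed below 0 without passing. MAGEE1 turned to 0.051 without KO1 and to 0.032 with the trend with gene span removed, and did not pass in either; it ranged from -0.36 to 0.051 when each library was left out. The joint log2 fold change of MAGED4 and MAGED4B ranged from -1.72 to -1.37 when each library was left out. It was no longer past the threshold without WT2 (-1.45, edgeR adjusted p = 0.0547) or WT3 (-1.46, edgeR adjusted p = 0.0554), for MAGED4B alone (-1.21) or with the span trend removed (-1.17, a fit added after the data were seen). The members called lower numbered 1 to 4 when each library was left out and 1 with the replicate block; 0 were called higher in any fit. With DESeq2, 2340 genes were higher and 1866 lower over all genes, against 1507 and 1134 by edgeR. Leaving out each library gave 401 to 4048 higher and 243 to 3927 lower. In the partner and neighbour lists, 1 gene was higher and 4 lower by edgeR; 6 were higher by DESeq2, 7 without a filter beyond 1 count and 4 with the span trend removed. Leaving out each library gave 1 to 12 higher and 1 to 14 lower. The cause of these shifts was not tested.

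The replicate numbers did not pair the samples: the correlation of same-numbered deviations was -0.0585, -0.0289 and 0.0022, and 0 of 6 libraries correlated best with its own number. With the replicate block 610 genes were higher and 359 lower, 1 partner or neighbour gene was lower, and MAGED1 did not pass (log2 fold change -0.70, edgeR adjusted p = 0.0845). Low depth limits MAGEH1 and NSMCE3, with at most 33 and 9 counts per library.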
